A study of Danio rerio with 30 samples.

Results

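The genes described here are the PERK and ATF4 branch of the stress response to misfolded protein in the endoplasmic reticulum, read in zebrafish embryos that had lost or gained transcription factors of the other branches. The members were picked out by gene symbol, from a list chosen with earlier results of these data known. They were the kinase gene eif2ak3, the transcription factor genes atf4a, atf4b, ddit3 and atf3, and the downstream genes chac1, trib3 and asns. All 8 symbols were found, 1 feature each, among the 26847 symbols of the feature tables. The Ensembl identifiers given there are ENSDARG00000062139 (eif2ak3), ENSDARG00000111939 (atf4a), ENSDARG00000038141 (atf4b), ENSDARG00000059836 (ddit3), ENSDARG00000007823 (atf3), ENSDARG00000070426 (chac1), ENSDARG00000016200 (trib3) and ENSDARG00000016375 (asns).

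As background, PERK, the product of eif2ak3, sits in the membrane of the endoplasmic reticulum and is activated when unfolded protein accumulates in its lumen. It phosphorylates the translation initiation factor eIF2α, which lowers protein synthesis in general while the ATF4 mRNA is translated more, so that ATF4 activity is set largely after transcription. ATF4 then raises genes such as DDIT3, which encodes the transcription factor CHOP, ATF3, CHAC1, TRIB3 and ASNS, roles known mainly from mammalian cells. The other branches of the response run through IRE1 with XBP1 and through ATF6, and CREB3L1 and CREB3L2 are related membrane-bound factors of secretory cells. The hatching gland and the notochord of the zebrafish embryo both secrete large amounts of protein.

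Pools of about 30 whole embryos were sequenced as single cells in droplets, 1 pool per library, at 12 and 8 hours post fertilization (hpf). At 12 hpf, 16 libraries covered loss of xbp1, atf6, creb3l1 and creb3l2, alone and jointly. The question taken up here is whether mRNA levels of the PERK branch genes were higher where other branches had been lost. Only RNA was counted in these libraries, so the activity of PERK or ATF4 was not measured. At 8 hpf, 6 libraries held embryos injected at the 1-cell stage with mRNA. Embryos came from the TL/AB strain. Loss was produced by injecting Cas9 protein with guide RNAs at the 1-cell stage (crispants), in which cells can carry different edits, and for creb3l1 also by a stable mutant line. The control crispants were mutated in tyr, a pigment gene. The creb3l2+creb3l1, atf6+creb3l2+creb3l1, xbp1+creb3l2+creb3l1 and quadruple (xbp1+atf6+creb3l2+creb3l1) embryos were made by injecting the creb3l1 mutant line. Tyr crispants, uninjected wild type, uninjected creb3l1 mutants and quadruple embryos had 2 libraries each. The remaining genotypes had 1 each: the xbp1, atf6, creb3l2 and creb3l1 crispants, the xbp1+atf6 crispants and the other 3 combinations. Of the 16 libraries 5 had lost xbp1, 5 atf6, 6 creb3l2 and 8 creb3l1. At 8 hpf the mRNAs for mCherry (the control, 40 pg) and for active N-terminal forms of creb3l2, creb3l1 and atf6 (creb3l2-N, creb3l1-N and atf6-N, 40 pg) were injected into xbp1 crispants, whereas mCherry at 125 pg and full-length creb3l2 at 40 pg were injected into embryos not mutated for xbp1.

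After filtering, 62385 cells remained at 12 hpf, 1759 to 5822 per library, with 37677040 to 120722912 UMIs per library, and 19021 cells remained at 8 hpf. In all cells, libraries with xbp1 lost held 119.7 to 288.7 xbp1 UMIs per 1000000 UMIs (CPM) against 319.7 to 480.7 in the others. The atf6 and creb3l2 transcripts were likewise lower in every library that had lost them, with ranges that did not overlap, while creb3l1 ran from 3.56 to 13.6 CPM with loss and from 7.14 to 8.71 CPM without, so that its mRNA level was no check of its loss. The cells were clustered, and clusters were named from marker genes. Hatching gland-like cells (1 cluster, led by hatching enzyme and cathepsin genes such as ctslb and he1.1) numbered 31 to 146 per library and notochord-like cells (clusters led by noto, twist2 and tbxta, and by loxl5b, twist2 and emilin3a) 66 to 249. The cells outside both classes are called the other cells. UMIs were summed per library and class. In such sums, fewer cells of a type within a mixed class and less RNA per cell cannot be told apart. The libraries are pools of embryos, so p-values rest on the spread between pools and not between single embryos or cells. Most genotypes have 1 library. In fits with 1 term per lost gene, that spread therefore also holds any departure of a genotype from the sum of its losses.

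The members differed in where they were expressed in the 4 control libraries (2 of tyr crispants and 2 of wild type), which are given as a description over the 20 classes that held at least 20 cells. The kinase gene eif2ak3 was highest in hatching gland-like cells, at 29.6 ± 5.39 CPM (SD, n = 4), followed by notochord-like cells at 15.8 ± 3.64 CPM and epidermis-like cells at 7.09 ± 1.57 CPM. The control libraries of each of these 3 classes did not overlap with those of the class before. From the epidermis-like cells downwards neighbours overlapped, to 0.516 ± 0.676 CPM in the lateral plate and cardiac-like cells. The gene for asparagine synthetase, asns, was also highest in hatching gland-like cells, at 34.5 ± 0.403 CPM, with no overlap with the eye field-like cells that came next at 12.3 ± 1.14 CPM. The pseudokinase gene trib3, whose product restrains signalling downstream of ATF4, was highest in notochord-like cells, at 122.1 ± 33.5 CPM, again with no overlap with the next class, the endoderm-like cells at 39.4 ± 7.07 CPM. It was lowest in epidermis-like cells, at 2.76 ± 1.26 CPM.

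For the other members the class with the highest mean overlapped the next one in its range over the 4 libraries. The gene for the glutathione-degrading enzyme chac1 ran from 27.0 ± 3.65 CPM in eye field-like cells to 65.4 ± 18.8 CPM in ionocyte precursor-like cells. The transcript of atf4a ranged from 160.5 ± 17.6 CPM in endoderm-like to 249.4 ± 42.6 CPM in somite-like cells. Its copy atf4b ranged from 77.7 ± 15.7 CPM in notochord-like cells to 124.0 ± 40.7 CPM in neuron-like cells. The CHOP gene ddit3 was sparse, with 10.8 ± 5.71 CPM in periderm-like, 5.94 ± 2.14 CPM in notochord-like cells and no UMI in the floor plate-like cells of the controls. The stress factor gene atf3 was as sparse, at 4.09 ± 3.49 CPM or less.

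**Figure D1:**
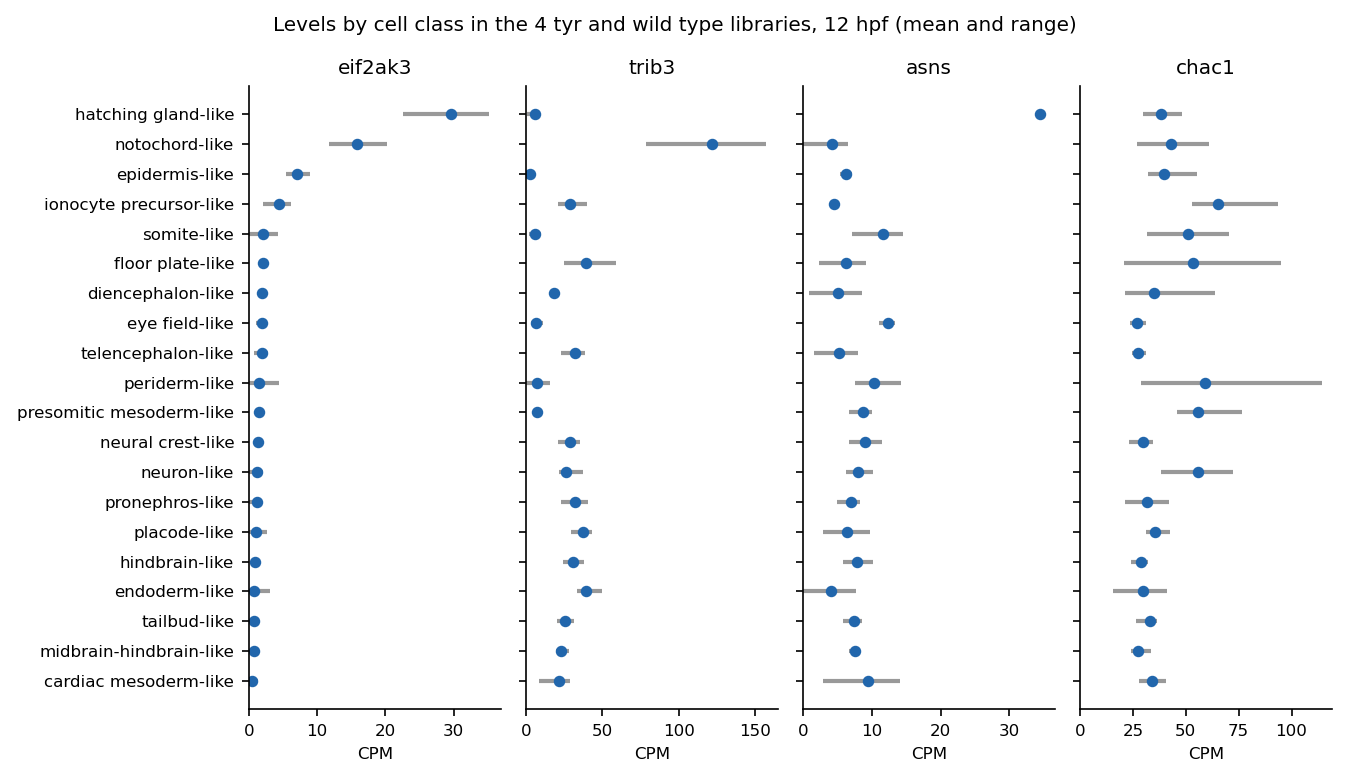
Levels of eif2ak3, trib3, asns and chac1 by cell class at 12 hpf, in CPM of the class (dots are means, bars the range over the 4 tyr and wild type libraries). Hatching gland-like cells lead for eif2ak3 (29.6 CPM) and asns (34.5 CPM) and notochord-like cells for trib3 (122.1 CPM), while the classes overlap for chac1.

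Where xbp1 had been lost, eif2ak3 did not rise in hatching gland-like cells but fell, to a fitted 0.268 of its level (95% interval 0.189 to 0.382). The 5 libraries without xbp1 held 11.8 CPM (xbp1), 6.52 (xbp1+atf6), 5.63 (xbp1+creb3l2+creb3l1), and 7.45 and 11.3 (quadruple). The 11 libraries with xbp1 intact held 32.1 and 28.6 CPM (tyr), 35.1 and 22.6 (wild type), 22.8 and 31.4 (creb3l1 mutant), 29.4 (creb3l1 crispant), 37.2 (atf6), 42.2 (creb3l2), 20.0 (creb3l2+creb3l1) and 30.1 (atf6+creb3l2+creb3l1). Every library without xbp1 lay below every library with it, and with atf6, creb3l1 or creb3l2 lost singly the level was within or above the range of the 4 tyr and wild type libraries.

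The means were 8.52 ± 2.80 CPM (SD, n = 5, 75 UMIs in all) and 30.1 ± 6.64 CPM (n = 11, 630 UMIs). The deposited files fall into sets A and B, made with different Cell Ranger versions, and the groups did not overlap within set A (6.52 to 11.8 against 20.0 to 42.2 CPM) or within set B (5.63 to 11.3 against 22.6 to 35.1 CPM). In a fit with 1 additive term for each lost gene and 1 for the file set, the log2 fold change of eif2ak3 with xbp1 loss was -1.90 (SE 0.24, edgeR quasi-likelihood test, adjusted p = 1.6e-05). Of the 7 members with enough UMIs to be tested in these cells, 3 were called, all lower, where 7.84% of the 8621 genes tested were called lower and 9.59% in either direction. A gene was called below an adjusted p of 0.05 (Benjamini-Hochberg over all genes of the fit). The additive model borrows replication across genotypes, since most have 1 library, and injection was not a term of it.

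Both of the other members that fell in hatching gland-like cells are ATF4 targets in mammals. The level of asns was 23.9 to 32.8 CPM (median 24.9) in the 5 libraries without xbp1 and 30.3 to 48.2 CPM (median 34.6) in the 11 with it. The pooled ranges overlapped, but within set A (24.04 to 24.91 against 30.3 to 48.2 CPM) and within set B (23.9 to 32.8 against 33.9 to 34.9 CPM) they did not overlap. Its log2 fold change was -0.56 (SE 0.14, edgeR quasi-likelihood test, adjusted p = 0.0117).

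For chac1 the 5 libraries without xbp1 held 35.8 CPM (xbp1), 45.7 (xbp1+atf6), 11.7 (xbp1+creb3l2+creb3l1), and 18.6 and 17.4 (quadruple), against 26.3 to 63.2 CPM (median 45.8) in the 11 others. The 3 lowest libraries had also lost creb3l1 and creb3l2, and the 2 that had lost xbp1 without them lay inside the range of the others. Within set A the groups overlapped (35.8 to 45.7 against 37.2 to 63.2 CPM), and within set B they did not (11.7 to 18.6 against 26.3 to 47.98 CPM). The fitted log2 fold change with xbp1 loss was -0.76 (SE 0.20, edgeR quasi-likelihood test, adjusted p = 0.0155). The calls of asns and chac1 were both lost when either the xbp1 library or the xbp1+creb3l2+creb3l1 library was left out, where adjusted p reached 0.111 for asns and 0.123 for chac1 over the libraries left out in turn.

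**Figure D2:**
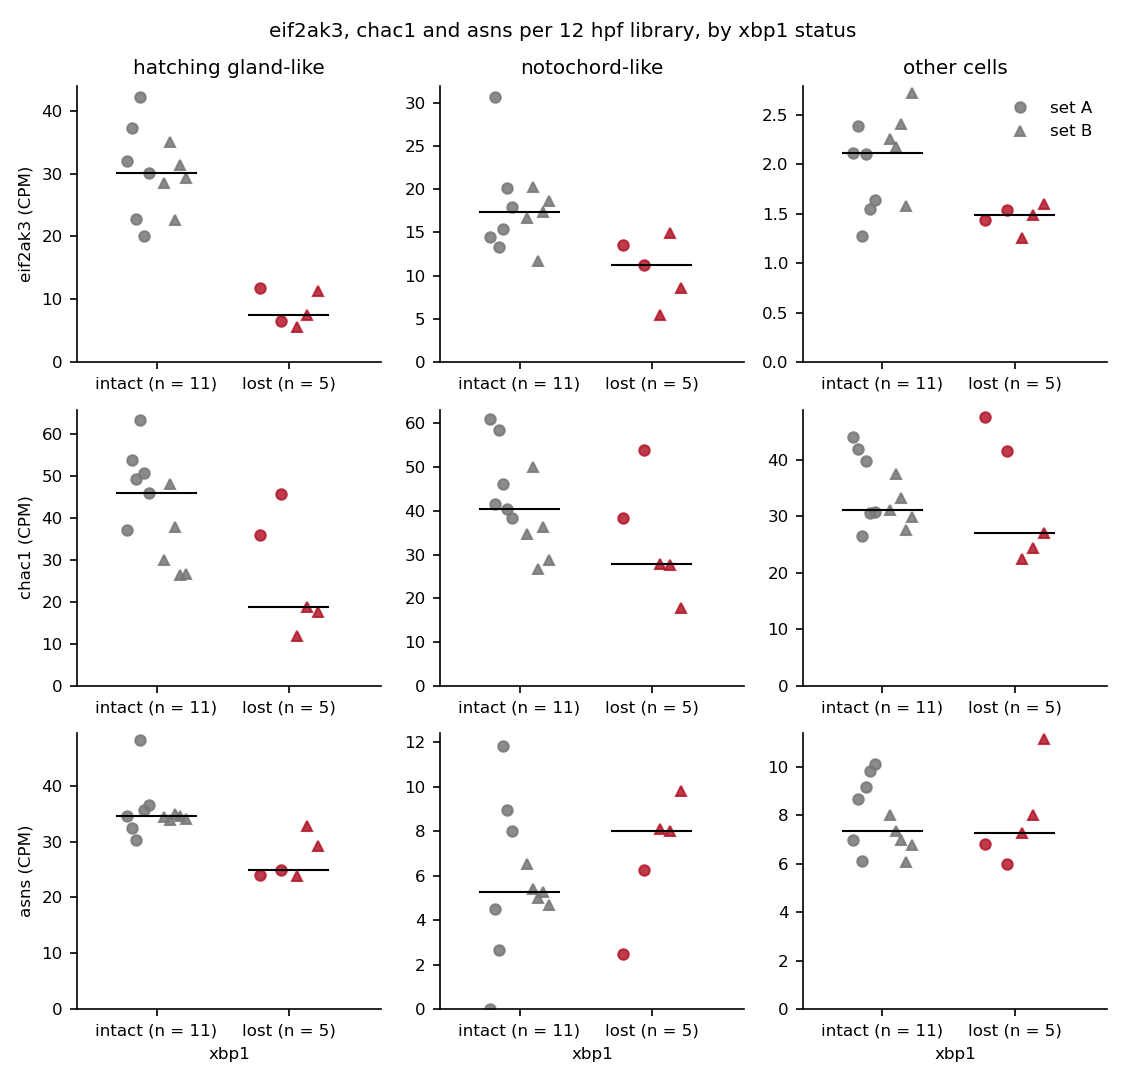
CPM of eif2ak3, asns and chac1 in hatching gland-like, notochord-like and other cells of each 12 hpf library, with xbp1 intact (grey, n = 11) or lost (red, n = 5); circles are file set A, triangles set B, and lines are medians. In hatching gland-like cells the red points of eif2ak3 (5.63 to 11.8 CPM) lie below all grey points (20.0 to 42.2 CPM).

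Among the transcription factor genes of the branch none was called with xbp1 loss. In hatching gland-like cells atf4a was 123.9 to 215.2 CPM (median 195.3) without xbp1 and 152.0 to 252.8 CPM (median 200.7) with it, and its log2 fold change was -0.37 (SE 0.12, 95% interval -0.62 to -0.12, edgeR quasi-likelihood test, adjusted p = 0.0607). The groups overlapped in set B and not in set A. For atf4b the log2 fold change was 0.05 (SE 0.11, 95% interval -0.19 to 0.29). For ddit3 it was -0.25 (SE 0.46), with an interval of -1.23 to 0.72 on 46 UMIs in the libraries without xbp1 and 117 in the others, so that a change of 1.5-fold in either direction could not be seen at this depth. The pseudokinase gene trib3 was as uncertain in these cells, at -0.53 (SE 0.55). In hatching gland-like cells atf3 held 18 UMIs over the 5 libraries without xbp1 and 20 over the 11 with it, and it did not pass the filter on low counts there. Of the 18, 11 came from the xbp1+creb3l2+creb3l1 library (5.16 CPM) and 6 from the xbp1+atf6 library (3.56 CPM), and the xbp1 library and the second quadruple library held none.

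In notochord-like cells none of the 7 members tested was called with xbp1 loss, where 0.211% of 9479 genes were. The level of eif2ak3 was 5.40 to 14.9 CPM without xbp1 and 11.7 to 30.7 CPM with it, ranges that overlapped, and its log2 fold change was -0.89 (SE 0.27, 95% interval -1.47 to -0.32, edgeR quasi-likelihood test, adjusted p = 0.34). The trib3 transcript, which was highest in this class, stood at 114.1 to 201.0 CPM without xbp1 and 78.4 to 171.1 CPM with it, a log2 fold change of 0.07 (SE 0.19, 95% interval -0.34 to 0.47). Its highest library was a quadruple one and its lowest a wild type one. The sparse ddit3 was 3.7 to 12.0 CPM (median 10.4) without xbp1 and 3.89 to 11.1 CPM (median 6.32) with it. Its fitted log2 fold change was -0.02 (95% interval -0.66 to 0.63) with xbp1 loss and 0.24 (-0.37 to 0.84) with atf6 loss. With creb3l1 loss it was 0.46 (-0.15 to 1.06) and with creb3l2 loss 0.21 (-0.46 to 0.88), none of them called. In the other cells none of the 8 members was called, where 0.0113% of 17639 genes were, and eif2ak3 was 1.26 to 1.600 CPM without xbp1 and 1.27 to 2.72 CPM with it (log2 fold change -0.48, SE 0.17, adjusted p = 0.49, edgeR quasi-likelihood test). There the intervals were narrow for trib3 (-0.19 to 0.22), chac1 (-0.14 to 0.27), atf4a (-0.37 to -0.02) and atf4b (-0.12 to 0.22).

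The effect of xbp1 loss on eif2ak3 was tested between classes in 1 fit of the 3 class sums with the library as a term. It was more negative in hatching gland-like than in other cells by -1.44 on the log2 scale (SE 0.27, 95% interval -1.98 to -0.89, edgeR quasi-likelihood test, adjusted p = 0.0003). For chac1 the same difference was -0.82 (SE 0.21, adjusted p = 0.0112, edgeR quasi-likelihood test), and the other 6 members showed no called difference, where 7.62% of 11491 genes differed and 6.24% were lower. For the sparse atf3 the difference was 1.83 (SE 0.87, edgeR quasi-likelihood test, adjusted p = 0.25), and it was called, and higher, only when the xbp1 library was left out, at 3.79 (SE 0.998, adjusted p = 0.0213). The chac1 difference was not called when the xbp1 library or the xbp1+creb3l2+creb3l1 library was left out, with adjusted p up to 0.157 in edgeR's quasi-likelihood test. Between hatching gland-like and notochord-like cells the difference for eif2ak3 was -0.97 (SE 0.35, adjusted p = 0.115, edgeR quasi-likelihood test), where 5.17% of genes differed and no member was called. Between notochord-like and other cells 0.0435% of genes differed, none of them a member.

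Loss of the other 3 factors was followed by fewer calls. With atf6 loss no member was called in hatching gland-like, notochord-like or other cells, where 0.0116%, 0.0105% and 0.00567% of genes were, and the log2 fold change of eif2ak3 was 0.04 (95% interval -0.44 to 0.52) in hatching gland-like cells and 0.44 (-0.10 to 0.98) in notochord-like cells. With creb3l1 loss chac1 fell in the other cells, from 31.2 to 47.7 CPM (median 40.7, n = 8) to 22.5 to 30.7 CPM (median 27.3, n = 8), ranges that did not overlap in the pool or within either file set. It was the single call among 8 members, with a log2 fold change of -0.41 (SE 0.10, edgeR quasi-likelihood test, adjusted p = 0.0468), where 2.44% of genes were called and 1.37% were lower. That adjusted p lies close to the threshold: the call was lost in 13 of 16 fits that left out 1 library, without the file set term (0.077) and with a term for injection (0.068). The transcript of atf4b was also low in these cells, at -0.29 (SE 0.08, edgeR quasi-likelihood test, adjusted p = 0.0767). In hatching gland-like and notochord-like cells no member was called with creb3l1 loss, where 1.39% and 1.23% of genes were.

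With creb3l2 loss asns had the largest log2 fold change of the members tested in notochord-like and in other cells. In hatching gland-like cells that of ddit3 was larger (0.58, SE 0.44, not called). In notochord-like cells asns was 8.02 to 11.8 CPM (median 8.53, n = 6, 83 UMIs) where creb3l2 was lost. It was 0 to 6.55 CPM (median 4.83, n = 10, 74 UMIs) where creb3l2 was intact, with no overlap in the pool or within either file set. Its log2 fold change of 1.27 (SE 0.39, 95% interval 0.44 to 2.11) was not called (edgeR quasi-likelihood test, adjusted p = 0.13), where 2.32% of genes were. The other cells (0.47, SE 0.12, edgeR quasi-likelihood test, adjusted p = 0.55) and the hatching gland-like cells (0.31, SE 0.13, adjusted p = 1.0, edgeR quasi-likelihood test) gave values of the same sign, also not called, where 0.0227% and 0.0% of genes were. The 2 calls of asns with other settings, with doublets kept in notochord-like cells (adjusted p = 0.0444) and with DESeq2 in the other cells (0.0471), lay close to the threshold.

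**Figure D3:**
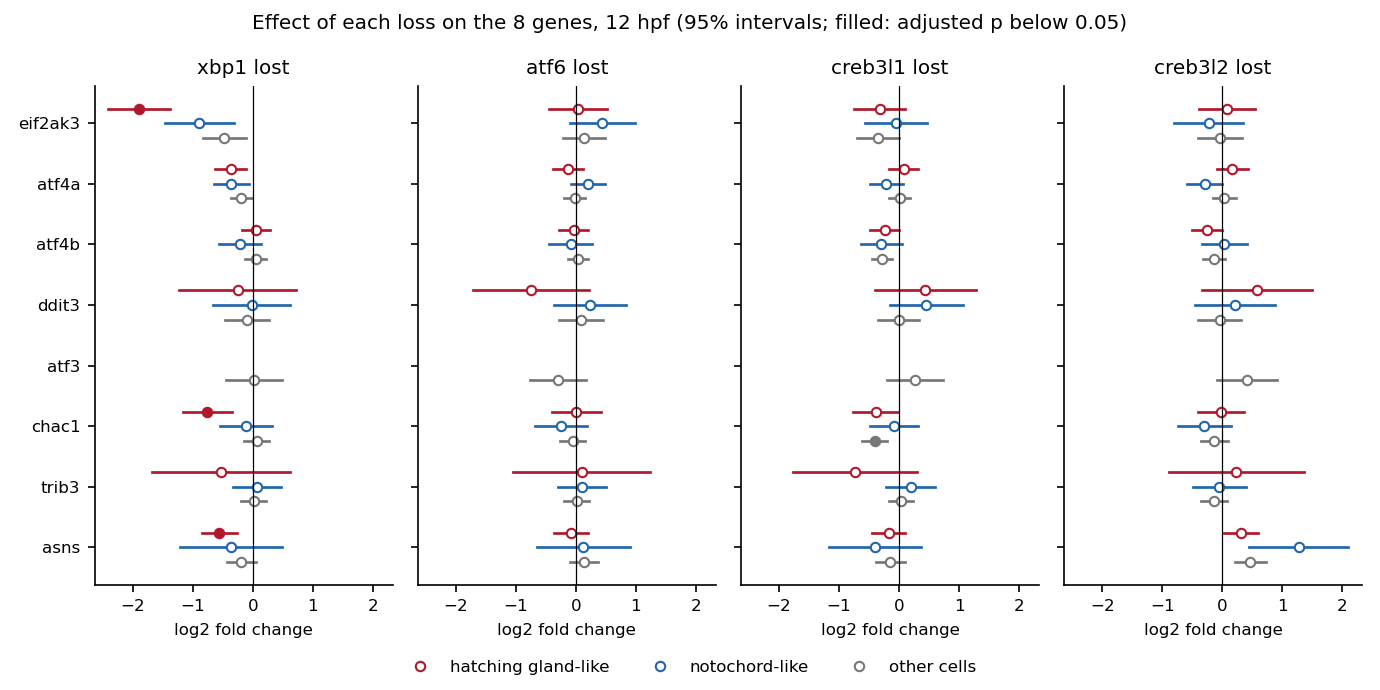
Log2 fold change of each gene with loss of xbp1, atf6, creb3l1 or creb3l2 in 3 cell classes at 12 hpf (points) with 95% intervals (bars); filled points have an adjusted p below 0.05 in edgeR's quasi-likelihood test. The 4 filled points, eif2ak3 (-1.90), chac1 (-0.76) and asns (-0.56) with xbp1 loss in hatching gland-like cells and chac1 (-0.41) with creb3l1 loss in other cells, all lie below 0.

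Beyond these 3 classes, 15 further classes had enough cells in every library for a fit, and 81 pairs of a class and a member were tested for each lost gene. None of them was called for any of the 4 losses, where 0.0534% of all tests were called with xbp1 loss, 0.0158% with atf6 loss, 0.675% with creb3l1 loss and 0.0301% with creb3l2 loss. At an unadjusted p below 0.05 there were 9, 0, 23 and 9 such pairs (edgeR quasi-likelihood test). The share of all tests at that threshold is not given here, so no result is read from these counts. Of the 23 pairs with creb3l1 loss, 12 were of atf4b and 9 of chac1. The classes share their libraries, so that their values are not independent of each other. With xbp1 loss the epidermis-like cells, the one further class in which eif2ak3 could be tested, gave -0.68 (SE 0.19, edgeR quasi-likelihood test, adjusted p = 0.27). Also with xbp1 loss, atf4b was above 0 in 15 of 15 classes (log2 fold changes 0.002 to 0.125, none at an unadjusted p below 0.05) and atf4a below 0 in 14 of 15 (-0.37 to 0.02, 5 at an unadjusted p below 0.05, edgeR quasi-likelihood test). With creb3l1 loss chac1 was below 0 in 15 of 15 classes (log2 fold changes -0.84 to -0.14) and atf4b in 15 of 15 (-0.46 to -0.14). With creb3l2 loss asns was above 0 in 13 of 13 (0.30 to 0.89). The share of all genes that kept 1 sign over the classes is not given here either, so no result is read from these sign counts.

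No member was called higher with the joint losses either. An interaction term of xbp1 and atf6 loss was called for no gene in hatching gland-like, notochord-like or other cells (0 of 8621, 9479 and 17639 genes, 0.0%, with 200, 201 and 216 at an unadjusted p below 0.05 in edgeR's quasi-likelihood test), and for eif2ak3 in hatching gland-like cells it was -0.26 (SE 0.51). In quadruple against tyr embryos, 2 libraries each, eif2ak3 fell in hatching gland-like cells from 32.1 and 28.6 to 7.45 and 11.3 CPM, a log2 fold change of -1.94 (SE 0.42, edgeR quasi-likelihood test, adjusted p = 0.0235). It was the single member called there, where 4.16% of genes were called and 3.93% were lower. Its call was lost when the first tyr, the first quadruple or the second quadruple library was left out, with adjusted p up to 0.256. Both quadruple libraries are of file set B and the tyr libraries are 1 of each set, a difference this fit has no term for, and without the first tyr library, within set B, the log2 fold change was -1.79 (SE 0.48, edgeR quasi-likelihood test, adjusted p = 0.0934). No member was called in notochord-like or other cells of the same embryos, where 2.45% and 0.371% of genes were. For chac1 the 3 log2 fold changes were -1.16 (SE 0.44), -1.20 (SE 0.49) and -0.69 (SE 0.26), with adjusted p of 0.22, 0.34 and 0.37 in edgeR's quasi-likelihood test.

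Injection with Cas9 and guides did not come with a called member. In tyr crispants against uninjected wild type, no member was called in hatching gland-like, notochord-like or other cells, where 0.0%, 0.0% and 0.0754% of genes were, and eif2ak3 in hatching gland-like cells differed by 0.13 (95% interval -0.72 to 0.99). Both wild type libraries are of file set B too, so that the set enters this comparison through the first tyr library. Genes of the p53 response, by contrast, were called higher in the other cells of the tyr crispants in 4 of 15 tested. Among them were the p53 antagonist gene mdm2 (2.19), the caspase gene casp8 (2.33) and the growth arrest gene gadd45aa (3.66 on the log2 scale), and these calls were lost in 6 of 8 fits that left out 1 library, with adjusted p up to 0.338.

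The rest of the pathway is given from gene lists written from general knowledge, as counts of called genes with xbp1 loss in hatching gland-like cells, where the median log2 fold change of all 8621 genes was -0.0028. Called lower were 7.84% of these genes and called higher 1.75%. Of 9 tested genes for the other eIF2α kinases, eIF2α itself, its phosphatase and their regulators, 3 fell and none rose. These were dnajc3a (-2.26, adjusted p = 1.1e-07) and dnajc3b (-1.44, adjusted p = 0.00046), whose mammalian counterpart inhibits PERK and assists folding, and eif2ak4 (-0.98, adjusted p = 0.0207, all edgeR quasi-likelihood test), which encodes the kinase GCN2 that senses amino acid shortage. Of 11 further ATF4 and CHOP targets 1 fell and none rose. It was herpud1 (-1.52), a gene for a protein of endoplasmic reticulum degradation that other branches also control. Of 17 genes of amino acid supply 1 fell, the proline synthesis gene aldh18a1 (-1.74, 21 UMIs without and 141 with xbp1), and none rose. Of the aminoacyl-tRNA synthetase genes 5 of 11 fell, none rose and all 11 estimates were below 0 (median -0.35), among them vars1 (-1.07), nars1 (-1.07) and aars1 (-0.55, edgeR quasi-likelihood test, adjusted p = 0.0148). The calls of eif2ak4, aldh18a1 and aars1 held in 13, 13 and 12 of 16 fits that left out 1 library.

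Most genes of the other branches fell. Of 18 tested chaperone and degradation genes of the XBP1 and ATF6 branches 17 fell in hatching gland-like cells with xbp1 loss (median -1.94), among them dnajc3a (also counted above), hyou1 (-1.82) and sdf2l1 (-1.40). Their summed level was 2629 to 3656 CPM without xbp1 and 6144 to 8889 CPM with it, with no overlap. In notochord-like cells 6 of 17 of them fell, among them calr3b (-1.59), hsp90b1 (-1.45) and hspa5 (-1.23), and no gene of the 4 PERK-related lists was called there. The list of heat shock genes, mostly of cytosolic chaperones but with the collagen chaperone gene serpinh1b of the endoplasmic reticulum and hsf2bp in it, held called genes in the other direction. In hatching gland-like cells 6 of its 9 tested genes rose with xbp1 loss (median 3.36), and hsp70.3 held 453 (xbp1), 695.0 (xbp1+atf6), 637.7 (xbp1+creb3l2+creb3l1), and 11.2 and 91.2 CPM (quadruple) against 2.34 to 52.4 CPM in the 11 other libraries. The near-identical hsp70 copies can share reads, so their single values are uncertain, but hsp70l and hsp70.2 gave the same split of the libraries: 178.4 to 470.3 CPM in the 3 libraries that were high for hsp70.3 and at most 18.6 CPM in both quadruple libraries. None of the 12 tested p53 genes and none of the 7 immediate early genes was called in these cells.

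Cell composition and depth are given beside these results for the hatching gland-like cells. The summed level of 11 hatching gland markers was 31090 to 47950 CPM without xbp1 and 32090 to 44560 CPM with it. Cells held a median of 23650 to 34170 and of 23210 to 35500 UMIs, and the cells per library 45 to 85 and 31 to 146. The periderm marker sum was 848 to 1860 CPM without and 1384 to 2580 CPM with xbp1, ranges that overlapped. The part of these values in the results was not tested.

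The genes whose levels followed each member most closely were taken over the 16 libraries in hatching gland-like cells, among the 8621 genes tested, as the 3 largest Pearson correlations of log2(CPM + 1). The points share their cell class, and libraries without xbp1 lie together, so the values are descriptions only. For eif2ak3 they were sel1l (r = 0.973) and edem1 (r = 0.969), both genes of endoplasmic reticulum degradation, and si:ch211-11k18.4 (r = 0.965). For asns they were mgat1a (0.845), herpud1 (0.84) and sec24c (0.834), the last a component of the coat of vesicles leaving the endoplasmic reticulum. For atf4a they were the isoleucyl-tRNA synthetase gene iars1 (0.930), rock1 (0.925) and mybbp1a (0.894). For chac1 they were znf207b (0.877), zgc:194246 (0.871) and otulina (0.859), for trib3 irx5a (0.824), myo1cb (0.818) and shroom4 (0.782), and for atf4b grcc10 (0.932), zc4h2 (0.908) and srsf9 (0.891). The closest genes to the sparse ddit3 were tor4aa (0.729), elp4 (0.724) and cabz01052576.1 (0.718).

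At 8 hpf the injected factors were compared with mCherry at the same dose of 40 pg in xbp1 crispants. Each group is 1 library, so there is no test, and the intervals cover counting error only. The 3 comparisons share the mCherry library. Values at 8 hpf are of all cells of a library unless a class is named. The injected factors were seen in the counts, with 412.6 CPM of atf6 after atf6-N against 48.6 after mCherry, 237.4 against 6.05 for creb3l1 and 399.2 against 14.1 for creb3l2. The kinase gene eif2ak3 was 1.40 CPM after mCherry (83 UMIs), 85.4 CPM after atf6-N (5679 UMIs), 7.47 CPM after creb3l1-N (534 UMIs) and 8.44 CPM after creb3l2-N (782 UMIs). These are ratios of 60.9 (95% interval 49.04 to 76.58), 5.33 (4.22 to 6.80) and 6.02 (4.80 to 7.64), with atf6-N far above the other 2 over all cells. After atf6-N most of the UMIs lay in cells given no class name (5506 UMIs, 89.3 CPM), which were 2903 of the 3177 cells of that library. The axial clusters together held 36.9 CPM (137 UMIs) against 1.83 after mCherry (7 UMIs). After atf6-N they included a cluster of 102 cells found in that library alone, which held 129 of these UMIs (51.9 CPM). In the axial classes found in both libraries, 40 prechordal plate-like cells held 9.18 CPM (8 UMIs) and 18 notochord-like cells none. After mCherry these 2 classes held 1.59 CPM (2 UMIs) and 1.94 CPM (5 UMIs). After creb3l2-N they held 22.2 CPM (31 UMIs) and 17.8 CPM (45 UMIs), and after creb3l1-N 4.3 CPM (5 UMIs) and 10.55 CPM (35 UMIs). In these 2 classes, on few UMIs, creb3l2-N thus stood above atf6-N. The axial clusters together held 19.4 CPM (76 UMIs) after creb3l2-N and 8.93 CPM (40 UMIs) after creb3l1-N.

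The share of cells with the transcript had the same order as the levels over all cells. Cells were thinned to 5000 UMIs, and cells with fewer were left out. These were 1020 of 3286 after mCherry, 790 of 3177 after atf6-N, 1385 of 4011 after creb3l1-N and 1359 of 4916 after creb3l2-N. Of the thinned cells 0.927% held an eif2ak3 UMI after mCherry (21 of 2266) and 18.1% after atf6-N (432 of 2387, exact 95% interval 16.6 to 19.7%). The shares were 3.05% after creb3l1-N and 3.63% after creb3l2-N. Unthinned and with the shallow cells included, the shares were 2.34%, 30.0%, 8.88% and 12.6%. Single cells of the atf6-N library held up to 47 UMIs of it. Free RNA of a library can add UMIs to cells that do not express a gene, and its part in these shares was not tested.

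Over all cells the other members responded little by comparison. With a change of at least 2-fold as the threshold, 2 of 8 members were higher after atf6-N, where 14.5% of 16592 genes were, and 1 of 8 after creb3l1-N, where 13.1% were. After creb3l2-N 1 of 8 was higher, where 2522 of 16800 genes were higher and 22.7% differed in either direction. The second after atf6-N was ddit3, at 5.03 CPM against 1.98 (ratio 2.54, 95% interval 2.05 to 3.16), and after creb3l2-N it was 3.92 CPM (ratio 1.98, 1.61 to 2.46) and after creb3l1-N 2.49 CPM. In the axial clusters ddit3 was 3.65 CPM after mCherry and 3.77 after atf6-N, on 14 UMIs each. After atf6-N 11 of the 14 came from the axial cluster found in that library alone. There it was 2.68 CPM after creb3l1-N and 5.62 after creb3l2-N. The translationally controlled atf4a stood at 317.1 CPM after mCherry, 275.4 after atf6-N, 511.3 after creb3l1-N and 522.7 after creb3l2-N, and so was higher with the 2 creb3l forms (ratios 1.61 and 1.65) and lower with atf6-N (0.869). In the same order chac1 was 64.5, 70.07, 95.4 and 91.2 CPM, with ratios of 1.09, 1.48 and 1.41.

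None of the last 4 members passed 2-fold in either direction over all cells of these 3 libraries. The levels of trib3 were 31.3, 34.0, 27.3 and 25.4 CPM, for asns 2.60, 3.55, 2.11 and 1.72 CPM, for atf4b 126.9, 117.4, 122.5 and 93.3 CPM, and for atf3 3.97, 3.52, 3.51 and 4.43 CPM, each after mCherry, atf6-N, creb3l1-N and creb3l2-N. Over all cells no member was 2-fold lower after atf6-N, creb3l1-N or creb3l2-N, where 4.47%, 3.7% and 7.73% of genes were. In prechordal plate-like cells trib3 was 28.6, 25.2, 15.5 and 12.2 CPM in the same order, mCherry first, on 36, 22, 18 and 17 UMIs. In notochord-like cells it was higher, at 112.2, 129.4, 105.5 and 57.5 CPM, on 289, 46, 350 and 145 UMIs.

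**Figure D4:**
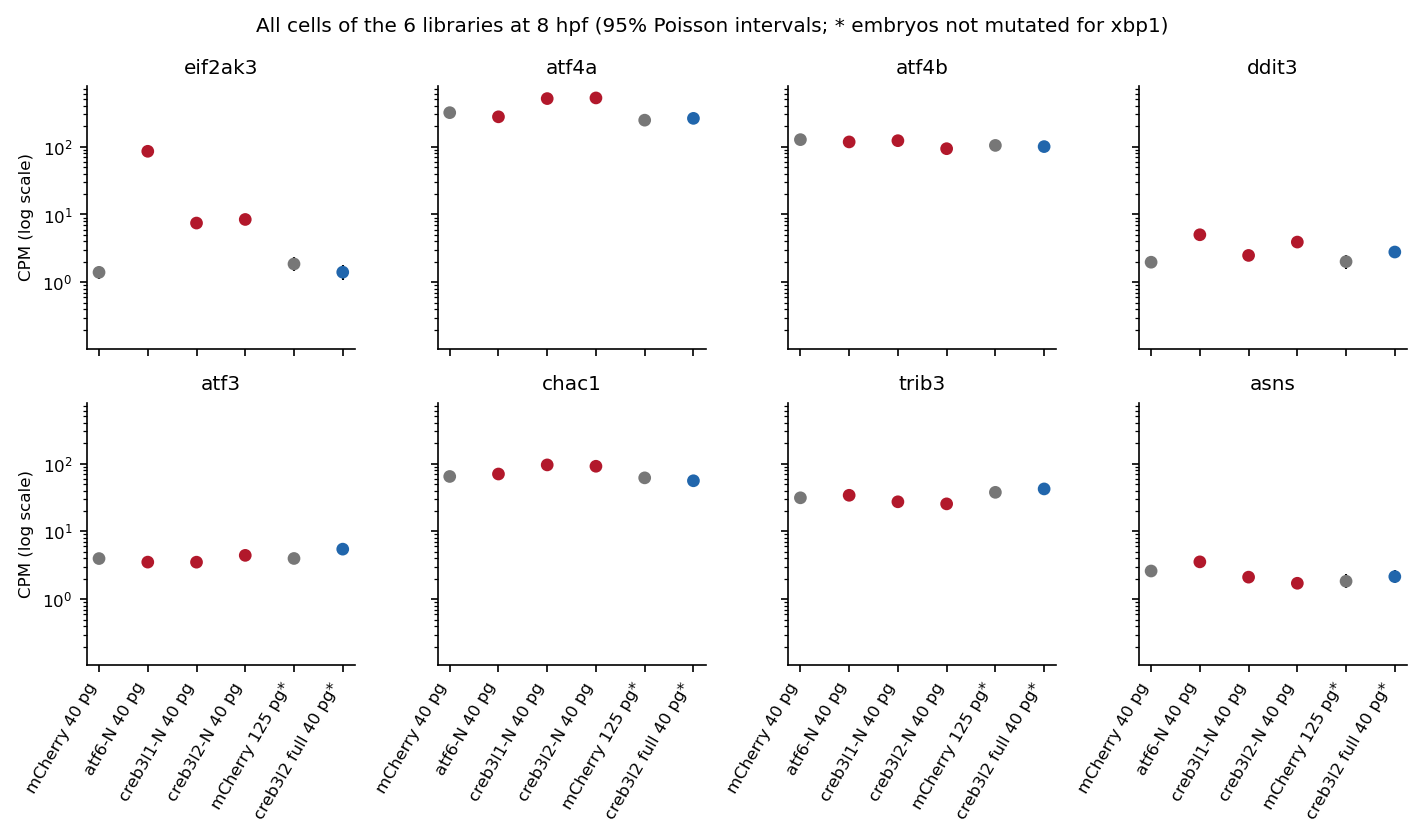
CPM (log axis) of the 8 genes in all cells of each of the 6 libraries at 8 hpf, with 95% Poisson intervals that are mostly smaller than the points; asterisks mark embryos not mutated for xbp1. The eif2ak3 point after atf6-N (85.4 CPM) stands apart from the mCherry 40 pg library (1.40 CPM), and after atf6-N ddit3 is the single other gene past 2-fold (5.03 against 1.98 CPM).

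In the same atf6-N library 16 of 18 measured genes of the list of the XBP1 and ATF6 branches were at least 2-fold higher (median log2 ratio 5.37). So were 5 of 13 genes of the eIF2α kinases and their regulators, led by dnajc3a (94.9-fold) and dnajc3b (10.8-fold). Of 20 further ATF4 and CHOP targets 4 were higher and 1 lower, with herpud1 at 26.3-fold. The share of all genes that were higher in this library was 14.5%, and 4.47% were lower. Of 24 amino acid supply genes 6 were higher and 1 lower, among them pycr1a (7.42-fold), and of 11 aminoacyl-tRNA synthetase genes 2 were higher, nars1 at 2.95-fold. For chac1, trib3 and asns no ratio over all cells exceeded 1.48 in any of the 3 libraries. In notochord-like cells chac1 was 59.4 CPM after mCherry (153 UMIs) and 56.3 after atf6-N (20 UMIs). There it was 121.8 CPM after creb3l1-N (404 UMIs) and 102.7 after creb3l2-N (259 UMIs). The atf4a levels of these cells were 233.4, 227.8, 513.8 and 505.6 CPM in that order.

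Full-length creb3l2, which needs to be cleaved to become active, was injected at 40 pg into embryos not mutated for xbp1, and the mCherry library of such embryos received 125 pg, so the doses differ and the values are given side by side. With full-length creb3l2 and with mCherry, in this order, eif2ak3 was 1.41 and 1.86 CPM, ddit3 2.80 and 2.02, atf4a 261.3 and 245.7, atf4b 100.2 and 104.3, atf3 5.47 and 3.98, chac1 55.7 and 61.5, trib3 42.2 and 37.6 and asns 2.15 and 1.84 CPM.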

How the data were processed

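Droplet single-cell libraries of whole zebrafish embryos were used, 22 of the 30 in the series, and the other 8 were not analysed here. Each library has 1 deposited matrix of UMI counts, neither scaled nor normalized. Per the file headers the software was Cell Ranger, version 3.1.0 for 8 matrices and version 6.1.2 for the remaining 14. No genome build is given in the sources used here. Features sharing a symbol were summed.

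Barcodes with at least 1000 UMIs and at most 10% mitochondrial UMIs were kept, and those with the highest scrublet scores (0.8% per 1000 barcodes, in scanpy 1.11.5) were removed as doublets. The automatic threshold was not used. Cells were clustered per stage (2000 variable genes, 40 principal components, 15 neighbours, Leiden resolution 2) without the targeted and listed genes, and 68.0% of 12 hpf cells fell into classes named from markers. Names rebuilt in this way may differ from the study's. Libraries at 12 hpf shared 0 to 13 barcodes per pair (median 4).

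Counts were summed per library and class and fitted in edgeR 4.0.16 (R 4.3.3, TMM, filterByExpr, two-sided quasi-likelihood test, Benjamini-Hochberg over all genes). The 16 libraries at 12 hpf were fitted with 4 loss terms and the file set. Groups with 2 libraries were also fitted alone, with a residual spread shared by 8 libraries and no term for the file set, which is mixed in the tyr and creb3l1 mutant groups alone. The 4 uninjected libraries all had xbp1, atf6 and creb3l2 intact, so a response to injection can enter those terms. At 8 hpf ratios of CPM carry exact counting intervals, for genes with at least 20 UMIs over both libraries. DESeq2 1.42.0 and other settings were tried as alternatives. The fits and intervals were tested on simulated data.

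The members, the gene lists and the tests were chosen with earlier results of these data known. All 8 members were described, and from each other list and fit up to 3 called genes of smallest p were eligible to be named. The likeness of genes was taken as the 3 largest correlations. Promoter sequences were not analysed here.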

Additional observations from a re-analysis of the deposited data

Results flagged for a closer look

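The effect of xbp1 loss differed between hatching gland-like cells and the other cells for 2 of the 8 genes, by a test of the difference itself. Of all 11491 genes 7.62% differed, and 6.24% were lower. For eif2ak3 the difference was -1.439 on the log2 scale (SE 0.27), and it was called in 16 of 16 fits that left out 1 library. For chac1 it was -0.821 (SE 0.21), a call that was lost when the xbp1 library or the xbp1+creb3l2+creb3l1 library was left out. The summed level of the heat shock list in hatching gland-like cells was 2168 to 3729 CPM in the 11 libraries with xbp1. It was above all of these in the xbp1 (4213 CPM), xbp1+atf6 (5964 CPM) and xbp1+creb3l2+creb3l1 (6432 CPM) libraries, and within their range in both quadruple libraries (2698 and 3426 CPM). Its part in these differences was not tested. No group had more than 2 libraries, so no library was compared with the spread of its own group.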

How the results depend on the processing

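Of the single-gene values recomputed under each alternative none reversed the direction of a call, but several calls were lost or gained, as given above and below. The fall of eif2ak3 with xbp1 loss in hatching gland-like cells was called in 16 of 16 fits that left out 1 library (-2.26 to -1.72) and under all 8 other settings tried. The number of members called there was 1 to 3 over the left-out libraries, and asns was not called without the low-count filter (adjusted p = 0.201, edgeR quasi-likelihood test). For hatching gland-like against other cells it was 1 to 2. In the other cells with creb3l1 loss it was 0 to 2 over the left-out libraries, 2 with DESeq2, and 0 without the file set term or with an injection term, against 1. With creb3l2 loss it was 1 with doublets kept in notochord-like cells and 1 with DESeq2 in the other cells, against 0. In quadruple against tyr hatching gland-like cells it was 0 to 1 over the left-out libraries and 0 when scaled by library totals, against 1. With the replicate block eif2ak3 was -1.93 (adjusted p = 0.034, edgeR quasi-likelihood test), and the block changed no call of a member. The replicate numbers were not taken as pairs: deviations of same-numbered libraries correlated at -0.407 to 0.289 in hatching gland-like, -0.317 to 0.400 in notochord-like and -0.596 to 0.447 in other cells, and in tyr and creb3l1 mutant embryos the number coincides with the file set. Without the low-count filter 1 pair was called in the further classes with creb3l1 loss, against 0. At 8 hpf 1 member passed a 3-fold threshold after atf6-N, against 2 at 2-fold, and 2 passed 2-fold after creb3l2-N with doublets kept or with at least 3000 UMIs per cell, against 1. The cause of these shifts was not tested. Depth limits ddit3, atf3 and, outside 4 classes, eif2ak3. Where 1 library of a group was left out, the lone library was assumed to vary like the others.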

Other observations

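Other genes of the lists used above were called with creb3l1 loss, with creb3l2 loss and in quadruple embryos. They are given here for completeness from edgeR's quasi-likelihood test. With creb3l1 loss in hatching gland-like cells the degradation factor gene derl3 fell (-2.27, SE 0.30, adjusted p = 0.001) and ern1, which encodes the sensor IRE1, rose (0.75, SE 0.16, adjusted p = 0.0265). The derl3 call held in 16 and the ern1 call in 10 of 16 fits that left out 1 library. In the other cells derl3 fell too (-1.67, adjusted p = 0.0117), while the aspartate aminotransferase gene got1 (0.97, adjusted p = 0.0181) and the immediate early gene egr1 (1.92, adjusted p = 0.0164) rose, each called in 13 of 16 such fits.

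With creb3l2 loss in notochord-like cells the degradation genes derl2 (-0.74, adjusted p = 0.00378) and syvn1 (-1.03, adjusted p = 0.00406, edgeR quasi-likelihood test) fell, both called in 16 of 16 fits that left out 1 library. The synthetase genes eprs1 (-0.85) and tars1 (-0.62) fell and the p53 target sesn1 (1.67) rose, with calls that held in 9, 3 and 12 of those 16 fits. Quadruple embryos had also lost xbp1 and atf6, so the lost gene behind a change cannot be told apart there. Against tyr embryos their hatching gland-like cells had lower dnajc3a (-2.10), nars1 (-1.27), hspa5 (-2.56) and edem1 (-3.00). Their notochord-like cells had lower pycr1b (-3.11), a proline synthesis gene. These calls held in 7, 2, 8, 8 and 3 of 8 fits that left out 1 library. Also called lower in the notochord-like cells were derl1 (-2.50), sdf2l1 (-2.22) and hsp90b1 (-1.74). Of all genes 4.16% were called in the hatching gland-like and 2.45% in the notochord-like cells. Of the p53 genes tp53inp1 rose in notochord-like cells (1.72, adjusted p = 0.0406), and mdm2 (1.33, adjusted p = 0.0436) and gadd45aa (2.23, adjusted p = 0.0488, edgeR quasi-likelihood test) rose in the other cells of the same embryos, called in 4, 2 and 4 of 8 such fits.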
